A study of Mus musculus with 14 samples.

Results

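The 33 genes for the building of peroxisomes and for peroxisomal lipid metabolism were followed in the retinal pigment epithelium (RPE) of RPE-specific *Clic4* knockout (KO) and control mice. They are 33 of the 42687 genes in the count table, a list of names drawn up with earlier results of these data known, and all 33 symbols matched a single Ensembl identifier. Of these, 13 are peroxins, the proteins that make peroxisomes, and 20 are peroxisomal enzymes and transporters. RPE cells, detached with trypsin from eyecups that still hold choroid and sclera, were pooled over both eyes of a mouse, and poly(A) RNA was sequenced from 14 male mice on the C57BL/6J background at 3 months of age. KO mice (Best1-Cre+/-; Clic4f/f) carry the floxed gene and a Cre transgene that the *Best1* promoter drives in the RPE, and they were set against wild type mice (WT set, 3 KO and 3 WT), floxed mice without Cre (Ctrl set, Clic4f/f, 2 KO and 2 Ctrl) and Cre mice without the floxed alleles (CreCtrl set, Best1-Cre+/-, 2 KO and 2 CreCtrl). The 3 sets share no library, and each control genotype occurs in a single set, so control genotype and set cannot be told apart.

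Peroxisomes are small organelles with a single membrane. They break down fatty acids that mitochondria cannot start on (very long, branched and dicarboxylic chains), begin the synthesis of ether lipids, and hold catalase, which removes the hydrogen peroxide their oxidases release. Their enzymes are made in the cytosol and imported by the peroxins. The RPE takes up shed photoreceptor outer segments every day, whose membranes are rich in very long and polyunsaturated chains, and inherited loss of a peroxin damages the retina.

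The libraries held 9828293 to 32384166 counts. *Clic4* was lower in every KO library than in the controls of its set, with log2 fold changes of -3.32 against WT (SE 0.22, adjusted p = 3.33e-05), -1.61 against Ctrl (SE 0.58, adjusted p = 0.333) and -2.16 against CreCtrl (SE 0.36, adjusted p = 0.0132). Cell type markers moved with genotype. The summed level of 10 RPE markers, none of them at 0, lay between 17808 and 26529 CPM (each library's counts divided by its scaled total, in units of 1e6 reads) in WT and between 75025 and 82310 CPM in the KO libraries of that set. It was 46268 to 46745 CPM in Ctrl against 71166 to 73569 CPM in KO, and in the CreCtrl set 51693 to 59276 against 71271 to 79896 CPM. The 10 fibroblast markers went the other way, from 7572 to 8090 CPM in WT against 254 to 668 CPM in KO, from 1126 to 1999 against 209 to 389 CPM in the Ctrl set, and from 1307 to 2654 against 216 to 368 CPM in the CreCtrl set. The part of these markers in the results below was not tested. In such bulk libraries, fewer cells of a type and less RNA per cell cannot be told apart.

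The stretches of DNA before *Scp2* and *Pex11a* and at the start of *Phyh* are shown because these genes had the largest well-counted increases in the WT set among the beta-oxidation enzymes, the peroxins and the alpha-oxidation enzymes. They come from RefSeq (GRCm38.p6), which held a promoter for 28 of the 33 members. Capitals mark AGGTCA or its reverse complement TGACCT, the core motif that nuclear receptors such as the PPARs recognise, searched on both strands from 250 bases before to 50 bases after each start. The *Scp2* stretch is the 250 bases before the RefSeq start on the minus strand (chr4:108118548-108118797), which lies inside the longer gene of the GENCODE annotation. The *Pex11a* stretch is the 250 bases before its start on the minus strand (chr7:79743132-79743381) and holds no copy. The *Phyh* stretch is a 30-base part after its RefSeq start on the plus strand (chr2:4919016-4919045). The start of *Phyh* in the GENCODE annotation, chr2:4919019, lies further downstream and falls inside this stretch.

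Scp2: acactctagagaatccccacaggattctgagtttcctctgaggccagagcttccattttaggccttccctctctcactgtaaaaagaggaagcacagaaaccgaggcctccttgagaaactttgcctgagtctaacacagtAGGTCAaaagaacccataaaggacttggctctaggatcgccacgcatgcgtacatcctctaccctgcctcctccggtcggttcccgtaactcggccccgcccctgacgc
Pex11a: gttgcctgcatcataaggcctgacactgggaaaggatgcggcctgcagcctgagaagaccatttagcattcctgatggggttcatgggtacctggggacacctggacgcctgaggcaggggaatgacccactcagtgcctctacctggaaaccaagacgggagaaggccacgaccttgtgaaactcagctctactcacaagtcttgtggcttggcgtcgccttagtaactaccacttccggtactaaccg
Phyh: tgccgtaagttaagtgTGACCTgggcgcag

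The motif begins at base -109 from the RefSeq start of *Scp2* and at base 37 after the RefSeq start of *Phyh*. It was present for 4 of the 28 members (*Pex11g*, *Phyh*, *Scp2* and *Slc27a2*) and in 16.3% of all 32851 RefSeq promoters. Here and below, members are counted as genes, with 33 promoters among the 28, whereas the percentages count promoters. The repeat AGGTCANAGGTCA, in which PPAR and RXR bind as a pair, was in no member and in 0.0396% of all promoters. CACGTG was in *Gnpat* alone (7.15% of all promoters) and GGGCGG in 22 of the 28 members (35.7% of all). A match describes the letters only.

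Levels of different genes were compared per kilobase of exon sequence, on CPM scaled over all 14 libraries. In the KO libraries the most abundant members were *Phyh*, the hydroxylase that opens the breakdown of phytanic acid (median 101 CPM per kb, 90.6 to 104), *Scp2*, the thiolase and sterol carrier of branched-chain oxidation (58.9, 29.5 to 67.2), and *Abcd3*, the main membrane transporter for branched and dicarboxylic acyl-CoAs (40.5, 38.5 to 53.1). In the controls *Phyh* again had the highest median, 57.1 CPM per kb, but its range of 25.5 to 84.7 CPM per kb overlapped those of *Scp2* (12.4 to 41.6) and *Abcd3* (15.5 to 42.6). *Pex19*, the chaperone of peroxisomal membrane proteins, was the highest peroxin in KO (30.7 CPM per kb, 24.6 to 36.2), overlapping *Pex6*, an ATPase that pulls cargo receptors back out of the membrane (28.8, 18.7 to 32.7). The lowest peroxin per kilobase was *Pex7*, the receptor for proteins with an N-terminal targeting signal (1.84 CPM per kb, 1.53 to 2.80). Its merged exons span 12.1 kb, and this rank rests on that length. In CPM not divided by length its KO median of 22.3 (18.5 to 33.8) was above those of *Pex26* (15.9, 13.8 to 20.7), *Pex10* (12.4) and *Pex11g* (8.47). The fatty acyl-CoA ligase *Slc27a2* had 1 count in all 14 libraries together, where 3 counts would be 0.0926 to 0.305 CPM, and the thiolase *Acaa1b* had 0 to 13 counts. *Acaa1b* is a near copy of *Acaa1a*, so the split of reads between them is uncertain. These 2 enzymes were too low to be tested, which left all 13 peroxins and 18 of the 20 enzymes and transporters. *Acox2*, the oxidase of branched chains and bile acid precursors, was tested on 0 to 263 counts a library.

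**Figure D1:**
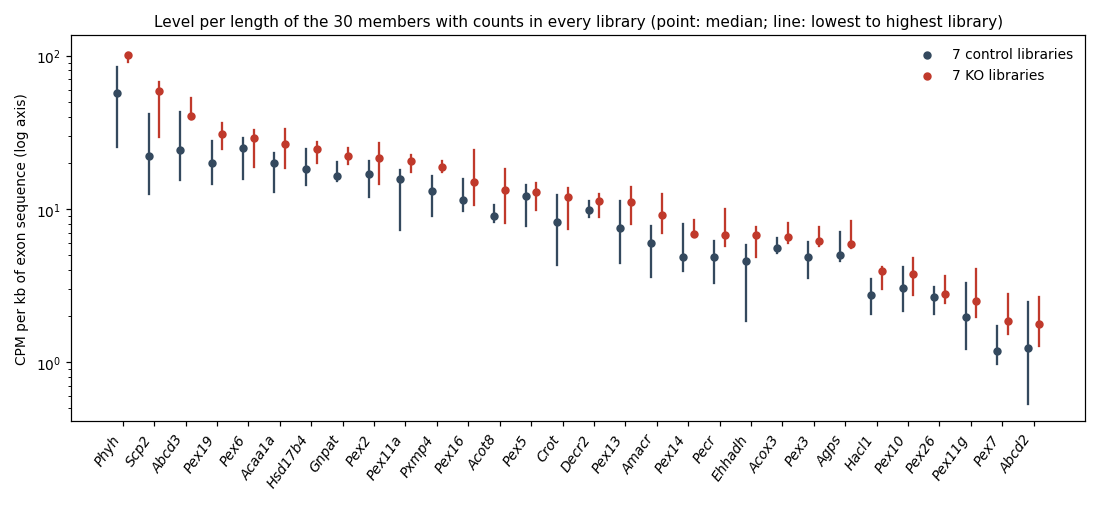
Level of 30 members per kilobase of exon sequence (CPM scaled over all 14 libraries, log axis) in the 7 control and 7 KO libraries, points showing the median and lines the lowest and highest library. *Phyh*, at a median of 101 CPM per kb in KO, *Scp2* and *Abcd3* stand at the left end and *Abcd2* at the right, and the KO range lies wholly above the control range for *Phyh* and *Pxmp4*.

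KO and WT mice were compared first. WT mice carry neither the floxed alleles nor Cre, so this contrast holds more than the loss of *Clic4*. Scaled over all 14 libraries, *Clic4* was at 218 to 230 CPM in WT and 62.1 to 108 CPM in the Ctrl and CreCtrl libraries. In the KO libraries it was at 9.79 to 33.9 CPM. Of 18 enzymes and transporters 11 rose in KO RPE and none fell. Among 13 peroxins 4 rose (*Pex11a*, *Pex19*, *Pex13* and *Pex14*) and none fell. Over all 15428 genes tested in this set, 16.1% rose and 19% fell at the same threshold, an adjusted p under 0.05 from edgeR's quasi-likelihood test. The median log2 fold change was 0.75 for the enzymes and transporters, 0.48 for the peroxins and -0.079 for all genes. Every KO library lay above every WT library for 15 of 18 enzymes and transporters and 8 of 13 peroxins, as for 23.7% of all genes. With libraries scaled by total counts alone, the median of all genes moved to -0.32, and that of the members from 0.57 to 0.33, a shift that scaling gives to all genes nearly alike. Fewer members then passed, 6 enzymes and transporters and 2 peroxins, beside 1716 of 15428 genes that rose. The share of rises among all calls went from 45.9% to 30.3%.

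Membrane assembly and docking are described first. *Pex19* was at 65.9, 59.8 and 73.7 CPM in WT and at 92.4, 134 and 114 CPM in KO, a log2 fold change of 0.77 (SE 0.16, adjusted p = 0.00615). All 3 KO libraries were above all WT libraries. *Pex3* (0.38) and *Pex16* (0.63), which receive membrane proteins from Pex19, had values above 0 that did not pass. The docking complex through which cargo receptors enter the membrane rose in both of its members. *Pex13* was at 25.2, 27.5 and 22.7 CPM in WT and 41.2, 36.4 and 37.0 CPM in KO (log2 fold change 0.61, SE 0.17, adjusted p = 0.0234). *Pex14* was at 26.4, 34.9 and 30.6 CPM in WT and 42.7, 41.1 and 52.8 CPM in KO (0.57, SE 0.18, adjusted p = 0.039), and neither gene's groups overlapped. The exons of *Pex14* share 1776 bases with an antisense gene, and whether the counts used strand is not stated.

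None of the cargo receptors and the parts that recycle them passed. *Pex7* was at 12.7, 14.6 and 15.6 CPM in WT and 21.9, 32.8 and 18.5 CPM in KO, a log2 fold change of 0.77 (SE 0.27) that just missed the threshold (adjusted p = 0.058). *Pex5*, the receptor for the C-terminal signal that most matrix enzymes carry, was at 54.2, 61.2 and 54.3 CPM in WT and 53.7, 55.8 and 54.9 CPM in KO (-0.045, SE 0.13, adjusted p = 0.825). The *Pex5* groups overlapped, with the lowest KO library below every WT library. *Pex2*, a ubiquitin ligase of the import machinery, was at 41.3, 29.3 and 38.7 CPM in WT and 47.7, 46.8 and 47.1 CPM in KO (0.37, SE 0.17, adjusted p = 0.129). *Pex6* was at 113, 102 and 96.2 CPM in WT and 118, 120 and 109 CPM in KO (0.16, SE 0.11, adjusted p = 0.333). KO lay above WT throughout for *Pex2* but not for *Pex6*, and *Pex10* (0.43), the partner ligase, and *Pex26* (0.20), the membrane anchor of Pex6, did not pass either.

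Pex11 proteins bend and elongate the peroxisomal membrane before the organelle divides. *Pex11a* (ENSMUSG00000030545, chr7:79735957-79743131 in GRCm38, minus strand, 3 exon blocks) showed the largest change of any peroxin, from 28.4, 25.0 and 34.7 CPM in WT to 65.5, 69.6 and 64.1 CPM in KO. Its log2 fold change was 1.17 (SE 0.16, adjusted p = 0.00076), and the lowest KO library was well clear of the highest WT library. *Pex11g* had 0.48 (SE 0.48, adjusted p = 0.496) on low and scattered levels, and its exons overlap another gene on the opposite strand over 1396 bases.

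**Figure D2:**
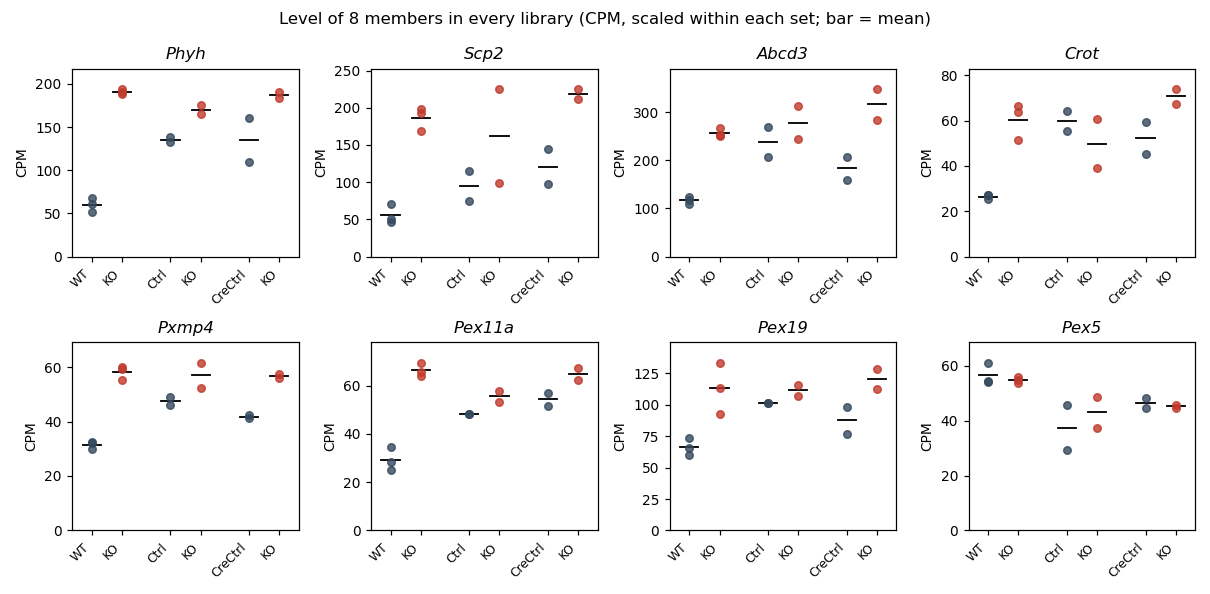
CPM of 8 members in each library, scaled within its set (vertical axis from 0), with bars at group means; dark points are controls and red points KO. *Phyh*, *Scp2*, *Abcd3*, *Crot*, *Pxmp4*, *Pex11a* and *Pex19* separate in the WT set, where the WT points sit low, and *Pex5* does not.

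Lipids enter the organelle through ABC transporters. *Abcd3* (ENSMUSG00000028127, chr3:121758774-121815302, minus strand, 24 exon blocks) was at 110, 117 and 124 CPM in WT and 250, 253 and 267 CPM in KO (log2 fold change 1.14, SE 0.11, adjusted p = 0.000142). Its spread within each group was small beside the gap between them. *Abcd2*, which carries very long polyunsaturated chains, had 0.26 (SE 0.45, adjusted p = 0.714).

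In the beta-oxidation spiral, 4 of 6 tested enzymes rose. *Scp2* (ENSMUSG00000028603, chr4:108043839-108144998, minus strand, 18 exon blocks) was at 46.5, 51.0 and 70.4 CPM in WT and 169, 198 and 194 CPM in KO (log2 fold change 1.74, SE 0.17, adjusted p = 0.000155). *Ehhadh*, the bifunctional enzyme of dicarboxylic chains, was at 6.53, 7.73 and 6.04 CPM in WT and 14.2, 16.4 and 20.3 CPM in KO (1.33, SE 0.30, adjusted p = 0.00882). Both were higher in every KO library. The thiolase *Acaa1a* rose by a log2 fold change of 0.42 (SE 0.13, adjusted p = 0.0318), and its exons share 290 bases with *Myd88* on the other strand. *Acox2* had 17, 0 and 2 counts in the WT and 27, 104 and 263 counts in the KO libraries, a log2 fold change of 3.99 with a wide error (SE 1.34, adjusted p = 0.0476). The lowest KO library of *Acox2*, with 27 counts, was close to the highest WT library, with 17, and the call was lost without WT replicate 2 or 3 or KO replicate 2 or 3 (log2 fold changes of 3.42, 3.53, 4.15 and 3.05). *Hsd17b4*, the bifunctional enzyme of very long and branched chains (0.29, adjusted p = 0.167), and *Acox3*, a branched-chain oxidase (0.032, adjusted p = 0.908), did not pass.

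The shortened chains leave as carnitine esters or free acids. *Crot*, the carnitine octanoyltransferase, was at 27.0, 25.4 and 27.0 CPM in WT and 63.8, 66.3 and 51.2 CPM in KO (log2 fold change 1.19, SE 0.16, adjusted p = 0.000626). *Acot8*, the main peroxisomal thioesterase, was at 19.3, 18.2 and 20.2 CPM in WT and 33.2, 35.4 and 26.8 CPM in KO (0.73, SE 0.20, adjusted p = 0.0199). Neither pair of groups overlapped. The exons of *Acot8* share 246 bases with *Snx21* on the other strand. The auxiliary reductases, which handle double bonds, did not pass. *Pecr* was at 6.62, 10.1 and 5.44 CPM in WT and 10.9, 12.1 and 15.1 CPM in KO (0.78, SE 0.36, adjusted p = 0.132), and *Decr2* had -0.050 (SE 0.20, adjusted p = 0.878).

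Alpha-oxidation, which removes a carbon from phytanic acid so that beta-oxidation can follow, held the change with the smallest p of the 33 genes. *Phyh* (ENSMUSG00000026664, chr2:4919019-4938730, plus strand, 9 exon blocks) was at 51.8, 60.6 and 68.1 CPM in WT and 194, 188 and 191 CPM in KO (log2 fold change 1.67, SE 0.13, adjusted p = 5.74e-05). *Amacr*, the racemase that prepares branched chains, was at 10.1, 11.6 and 17.1 CPM in WT and 24.05, 22.2 and 32.8 CPM in KO (1.02, SE 0.28, adjusted p = 0.0227). In both genes each KO library was above each WT library. *Hacl1*, the lyase, had 0.49 (SE 0.25, adjusted p = 0.17).

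Ether lipid synthesis moved little. *Gnpat*, its acyltransferase, was at 61.9, 62.8 and 59.6 CPM in WT and 88.3, 74.2 and 79.1 CPM in KO (log2 fold change 0.39, SE 0.12, adjusted p = 0.0365), with no overlap. It shares 280 exon bases with a non-coding gene on its own strand. *Agps*, which places the ether bond, had 0.12 (SE 0.13, adjusted p = 0.523). *Pxmp4*, a peroxisomal membrane protein, was at 32.1, 30.1 and 32.4 CPM in WT and 55.1, 59.2 and 60.0 CPM in KO (0.88, SE 0.14, adjusted p = 0.00139), and its groups were far apart.

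The counts depended on single libraries in places. Besides *Acox2*, 6 members lost their call when a single library was left out. *Gnpat* lost it without WT replicate 1, 2 or 3 or KO replicate 1 (log2 fold changes of 0.40, 0.41, 0.37 and 0.37), and *Acaa1a* without WT replicate 1 or 3 (0.36 and 0.41). *Pex14* lost it without WT replicate 1 or 3 or KO replicate 3 (0.48, 0.57 and 0.55), and *Pex13* without WT replicate 3 or KO replicate 1 (0.54 and 0.60). *Acot8* lost it without WT replicate 2 or KO replicate 1 or 2 (0.69, 0.75 and 0.72), and *Amacr* without WT replicate 1 or 2 or KO replicate 3 (0.87, 0.95 and 0.93). Each of the 7 also lost it with total counts alone, and *Gnpat*, *Acaa1a*, *Pex14* and *Acox2* with the replicate number as a block. Without WT replicate 3, 2 peroxins passed in place of 4 (*Pex11a* and *Pex19*), and without WT replicate 2, 7 enzymes and transporters passed in place of 11. A fit of all 14 libraries as 6 groups called 8 peroxins and 13 enzymes and transporters for the same contrast. The share of all genes that this fit called is not given.

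**Figure D3:**
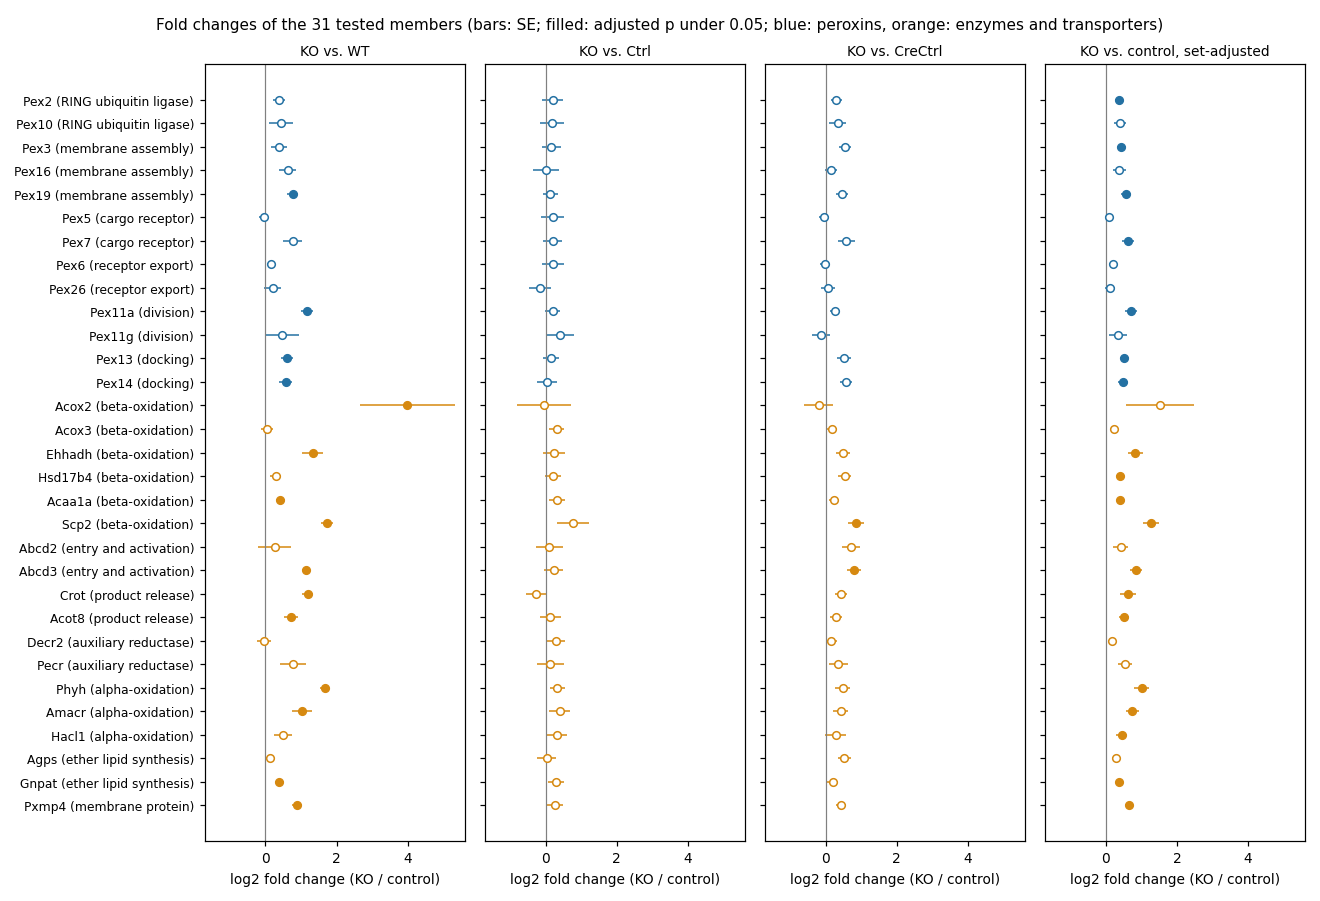
Log2 fold changes (KO against control) with SE of the 31 tested members by role in each set and in the fit over all sets, filled where the adjusted p was under 0.05; peroxins are blue and enzymes and transporters orange. Filled points number 15 against WT, 0 against Ctrl, 2 against CreCtrl and 19 over all sets, and none lies below 0.

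The Ctrl set compares KO with mice that carry the floxed alleles without Cre. No member passed, and neither did any other of the 15287 genes tested (0% higher and 0% lower), while 1846 of those genes and 0 members had an unadjusted p under 0.05 by edgeR. DESeq2 called 0 members too. Median log2 fold changes were 0.25 for the enzymes and transporters, 0.19 for the peroxins and 0.013 for all genes. Both KO libraries were above both Ctrl libraries for 9 of 18 enzymes and transporters and 3 of 13 peroxins, beside 18.2% of all genes. *Phyh* was at 133 and 138 CPM in Ctrl and 165 and 175 CPM in KO (0.33, SE 0.21, adjusted p = 0.705). *Pxmp4* was at 45.9 and 48.9 CPM in Ctrl and 52.3 and 61.6 CPM in KO (0.27, SE 0.22, adjusted p = 0.807). *Gnpat* was at 62.3 and 56.5 CPM in Ctrl and 77.7 and 68.1 CPM in KO (0.30, SE 0.22, adjusted p = 0.764). These 3 genes did not overlap between the groups, but none passed the threshold.

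Several of the genes that rose against WT overlapped here. *Scp2* was at 74.9 and 115.2 CPM in Ctrl and 98.7 and 225 CPM in KO (log2 fold change 0.77, SE 0.45, adjusted p = 0.659), its KO mice differing from each other by more than the groups did. *Abcd3* was at 206 and 269 CPM in Ctrl and 312 and 245 CPM in KO (0.23, SE 0.26, adjusted p = 0.878). The order was the opposite for *Crot*, at 55.5 and 64.4 CPM in Ctrl and 60.8 and 39.0 CPM in KO (-0.27, SE 0.29, adjusted p = 0.868). The value of *Crot* turned to 0.024 without KO replicate 2. *Pex13* was at 42.7 and 49.7 CPM in Ctrl and 54.1 and 49.4 CPM in KO (0.16, SE 0.22, adjusted p = 0.907). *Pex19* was at 102 and 101 CPM in Ctrl and 116 and 107 CPM in KO (0.14, SE 0.21, adjusted p = 0.918). *Pex13* overlapped between the groups and *Pex19* did not.

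Other roles gave similar small values in the Ctrl set. *Pex11g* was at 6.50 and 6.19 CPM in Ctrl and 9.28 and 7.47 CPM in KO (0.40, SE 0.39, adjusted p = 0.852). *Decr2* was at 23.1 and 23.96 CPM in Ctrl and 25.4 and 32.02 CPM in KO (0.29, SE 0.26, adjusted p = 0.834). Neither overlapped, unlike the following 3 peroxins, whose Ctrl libraries reached into the KO range. *Pex7* was at 16.4 and 19.9 CPM against 19.2 and 22.5 CPM (0.20, SE 0.28, adjusted p = 0.908), *Pex6* at 85.7 and 56.4 CPM against 96.1 and 68.2 CPM (0.21, SE 0.31, adjusted p = 0.913), and *Pex2* at 38.2 and 30.2 CPM against 47.0 and 31.9 CPM (0.21, SE 0.30, adjusted p = 0.911).

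Against Best1-Cre mice, which share the Cre transgene with the KO, 2 enzymes and transporters rose, *Scp2* and *Abcd3*, and no peroxin passed. By edgeR, 5 peroxins and 8 enzymes and transporters had an unadjusted p under 0.05. These 13 of 31 tested members stood beside 6163 of 15963 genes. DESeq2 called 2 peroxins and 4 enzymes and transporters, and its share of all genes is not given. Of the 15963 genes tested in the CreCtrl set, 3.6% rose and 12.2% fell. The median log2 fold change was 0.43 for the enzymes and transporters, 0.30 for the peroxins and -0.022 for all genes. In this set 16 of 18 enzymes and transporters and 9 of 13 peroxins were higher in both KO libraries than in both CreCtrl libraries, where 34.8% of all genes were. *Scp2* was at 145 and 96.9 CPM in CreCtrl and 211 and 226 CPM in KO (log2 fold change 0.85, SE 0.22, adjusted p = 0.0414). *Abcd3* was at 206 and 160 CPM in CreCtrl and 283 and 349 CPM in KO (0.79, SE 0.20, adjusted p = 0.0426). Both genes separated the groups, and both calls were lost without CreCtrl replicate 2, without KO replicate 2 and with scaling by total counts alone. Without CreCtrl replicate 1, 4 peroxins and 6 enzymes and transporters passed. With total counts alone 219 of 15963 genes rose, and the share of rises among all calls was 7.36% in place of 22.7%. Rod photoreceptor markers fell in this set, 10 of 10, with a median log2 fold change of -3.13, and their part in the results was not tested.

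Of the peroxins against CreCtrl, *Pex14* and *Pex3* stood next to the threshold. *Pex14* was at 30.2 and 25.3 CPM in CreCtrl and 40.0 and 42.4 CPM in KO (log2 fold change 0.57, SE 0.16, adjusted p = 0.0538). *Pex3* was at 22.9 and 23.5 CPM in CreCtrl and 31.5 and 35.8 CPM in KO (0.54, SE 0.16, adjusted p = 0.0617). *Pex7* was further off, at 18.1 and 12.9 CPM in CreCtrl and 20.7 and 25.6 CPM in KO (0.58, SE 0.23, adjusted p = 0.117). In none of these 3 genes did the groups overlap. *Pex2* was at 46.3 and 46.6 CPM against 54.0 and 60.5 CPM (0.30, SE 0.14, adjusted p = 0.166). *Pex11a*, the peroxin with the largest change against WT, was at 57.0 and 51.7 CPM in CreCtrl and 62.4 and 67.2 CPM in KO (0.25, SE 0.14, adjusted p = 0.235). These also kept apart, whereas *Pex26* overlapped, at 14.4 and 16.4 CPM against 16.6 and 15.6 CPM (0.063, SE 0.20, adjusted p = 0.837).

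Among the enzymes that did not pass there, *Pxmp4* came nearest by p. It was at 42.3 and 41.2 CPM in CreCtrl and 55.8 and 57.6 CPM in KO (log2 fold change 0.44, SE 0.14, adjusted p = 0.0669). *Agps* was at 57.4 and 44.6 CPM in CreCtrl and 69.3 and 77.9 CPM in KO (0.53, SE 0.17, adjusted p = 0.0735). Both were higher in each KO library. *Crot* was at 59.6 and 45.1 CPM in CreCtrl and 67.5 and 74.1 CPM in KO (0.43, SE 0.18, adjusted p = 0.118). *Phyh* was at 160 and 109 CPM in CreCtrl and 184 and 190 CPM in KO (0.47, SE 0.21, adjusted p = 0.14). The CreCtrl mice differed from each other by more than the KO mice in both genes. *Pecr* was at 7.86 and 6.66 CPM against 8.48 and 10.2 CPM (0.36, SE 0.26, adjusted p = 0.346).

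Over all 7 KO and 7 control libraries, with the set as a term of the fit, 12 of 18 enzymes and transporters and 7 of 13 peroxins rose and none fell, beside 18.5% of 17662 genes that rose and 17.6% that fell. The median log2 fold changes were 0.52 for the enzymes and transporters, 0.40 for the peroxins and -0.025 for all genes. The peroxins were *Pex11a* (log2 fold change 0.70, SE 0.17, adjusted p = 0.00561), *Pex7* (0.62), *Pex19* (0.57), *Pex13* (0.52), *Pex14* (0.49), *Pex3* (0.44) and *Pex2* (0.38). *Scp2* (1.28, SE 0.23, adjusted p = 0.00111) and *Phyh* (1.01, SE 0.21, adjusted p = 0.00277) led the enzymes. *Abcd3* (0.85), *Ehhadh* (0.83), *Amacr* (0.74), *Pxmp4* (0.65), *Crot* (0.63), *Acot8* (0.50), *Hacl1* (0.45), *Acaa1a* (0.41), *Hsd17b4* (0.41) and *Gnpat* (0.38) completed them. The call of *Crot* was lost without any single library of the WT set and without replicate 2 of CreCtrl or of its KO (0.53 to 0.64), as well as with the replicate number as a block (0.62) and with total counts alone (0.36). The call of *Hacl1* was lost without WT replicate 1, 2 or 3, KO replicate 1 or 3 of the WT set, Ctrl replicate 2, CreCtrl replicate 2 or KO replicate 2 of the CreCtrl set (0.39 to 0.46), and under the block (0.47), DESeq2 (0.38), RLE scaling (0.38), total counts alone (0.18) and with every gene of at least 1 count kept (0.46). *Pex2* lost its call without KO replicate 1 of the Ctrl set (0.34), with RLE scaling (0.30) and with every gene kept (0.38), and *Pex3* with every gene kept (0.44). With total counts alone the calls of *Pex2*, *Pex3*, *Pex7*, *Pex13*, *Pex14*, *Acaa1a*, *Acot8*, *Gnpat* and *Hsd17b4* were lost too (0.10 to 0.35). In that scaling 1499 of 17662 genes rose. The receptor *Pex5* (0.10, SE 0.11, adjusted p = 0.526) and the exporters *Pex6* (0.19, adjusted p = 0.197) and *Pex26* (0.13, adjusted p = 0.505) did not pass.

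The calls over all sets were not retained without the WT set, whose removal also leaves fewer mice. In a fit of the Ctrl and CreCtrl sets alone, 4 KO against 4 control mice, 0 members passed, when 0.579% of 16577 genes rose. By edgeR, 3 peroxins and 10 enzymes and transporters had an unadjusted p under 0.05, as did 4389 of the 16577 genes. The medians were then 0.27 for the peroxins, 0.31 for the enzymes and transporters and -0.029 for all genes. The smallest p was that of *Pxmp4* (0.37, SE 0.11, adjusted p = 0.0893), followed by *Scp2* (0.82, SE 0.27, adjusted p = 0.108) and *Phyh* (0.41, SE 0.14, adjusted p = 0.108).

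Whether the change differed between sets was tested by contrasts in the fit of all 14 libraries as 6 groups. Between the WT and Ctrl sets it differed for 5 members, with 5.15% of 17662 genes doing so. The change against WT was larger for *Crot* by 1.60 on the log2 scale (SE 0.29, adjusted p = 0.0136), for *Phyh* by 1.48 (SE 0.23, adjusted p = 0.00964), for *Pex11a* by 1.11 (SE 0.22, adjusted p = 0.0162), for *Abcd3* by 1.05 (SE 0.24, adjusted p = 0.0296) and for *Pxmp4* by 0.76 (SE 0.20, adjusted p = 0.0443). Between the WT and CreCtrl sets *Phyh* (1.30, SE 0.23, adjusted p = 0.0241) and *Pex11a* (1.03, SE 0.22, adjusted p = 0.0398) differed, and 1.49% of all genes. These contrasts both use the WT set. Between the Ctrl and CreCtrl sets no member and no other gene differed (0%).

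Single libraries decided part of this. The 5 members became 1 (*Phyh*) without Ctrl replicate 2 or without KO replicate 2 of the Ctrl set, and 3 without KO replicate 2 or 3 of the WT set. The 2 members of the WT and CreCtrl contrast became 0 without WT replicate 2, KO replicate 2 or 3 of the WT set, CreCtrl replicate 1, or either KO replicate of the CreCtrl set, and 1 (*Phyh*) without WT replicate 1, KO replicate 1 of the WT set or CreCtrl replicate 2.

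Scaled over all 14 libraries, the 3 WT libraries lay below all Ctrl and CreCtrl libraries for 11 of 31 tested members (17.3% of all genes) and below all 7 KO libraries for 17 (19.2%). *Phyh* was at 48.2, 56.1 and 61.8 CPM in WT, at 108 to 160 CPM in the other 4 controls (median 141) and at 171 to 198 CPM in the 7 KO libraries (median 191). *Pex11a* was at 26.4, 23.2 and 31.5 CPM in WT, at 49.9 to 57.0 CPM in the other controls and at 55.3 to 71.9 CPM in KO. *Crot* was at 25.1, 23.5 and 24.5 CPM in WT, at 44.7 to 67.3 CPM in the other controls and at 40.5 to 74.3 CPM in KO. WT thus stood apart from the other controls in these genes, and the KO libraries overlapped the other controls for *Pex11a* and *Crot* but not for *Phyh*. *Pex5* was the reverse, highest in WT among the controls (49.3 to 56.6 against 30.5 to 47.9 CPM). KO libraries of the WT set lay below all other KO libraries for 2 members (*Pex13* and *Abcd2*, 10.5% of all genes) and above them for 4 (*Pex5*, *Acaa1a*, *Acot8* and *Pecr*, 9.85%).

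Other peroxisomal genes, 43 on the list, were followed beside the members. Against WT 33 were tested, 14 rose and 1 fell (median log2 fold change 0.59). Catalase (*Cat*) was at 224, 219 and 281 CPM in WT and 778, 841 and 799 CPM in KO (1.74, SE 0.14, adjusted p = 6.03e-05). *Pxmp2* (1.88) and *Nudt12* (1.60) were among the genes that rose. Against Ctrl 0 of 34 genes passed (median 0.22), and against CreCtrl 4 of 35 rose (*Lonp2*, *Nudt12*, *Acbd5* and *Tmem135*, by 0.88, 0.79, 0.65 and 0.63 on the log2 scale) and 1 fell (*Pex5l*, -2.43), with a median of 0.37.

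Mitochondrial fatty acid oxidation takes over the chains that peroxisomes have shortened. Of its 17 genes 15 rose against WT (median log2 fold change 1.10, with *Eci1* at 1.98 and *Cpt2* at 1.72), 0 against Ctrl (0.18) and 0 against CreCtrl (0.46). Of 6 PPAR receptors and partners 1 rose against WT (*Ppargc1a*, 1.44, SE 0.24, adjusted p = 0.00181) and 2 fell (*Pparg*, -1.15, adjusted p = 0.0381, and *Rxra*, -0.56, adjusted p = 0.0345), and none passed in the other sets. Among the 10 RPE markers 9 rose against WT, all but *Best1*, with a median of 1.67, above that of the enzymes and transporters (0.75). *Best1* went the other way, with a log2 fold change of -1.82 and every KO library below every WT library, but did not pass. Against Ctrl the median of the 10 RPE markers was 0.58 and 0 passed. Against CreCtrl it was 0.60 and 1 passed (*Lrat*, 1.26), and the lowest of the 10 was at -1.11. The 10 fibroblast markers had medians of -4.19, -2.90 and -3.37 in the WT, Ctrl and CreCtrl sets, and 10, 0 and 9 of them fell. Medians of the myeloid markers (-3.69, 0.24 and -2.79), the endothelial markers (-2.31, -2.15 and -2.53) and the pericyte markers (-3.19, -1.99 and -1.55) were mostly below 0, and those of the rod markers (0.43, 0.68 and -3.13) and of the Schwann cell and melanocyte markers (-1.40, -0.0084 and -1.34) varied.

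**Figure D4:**
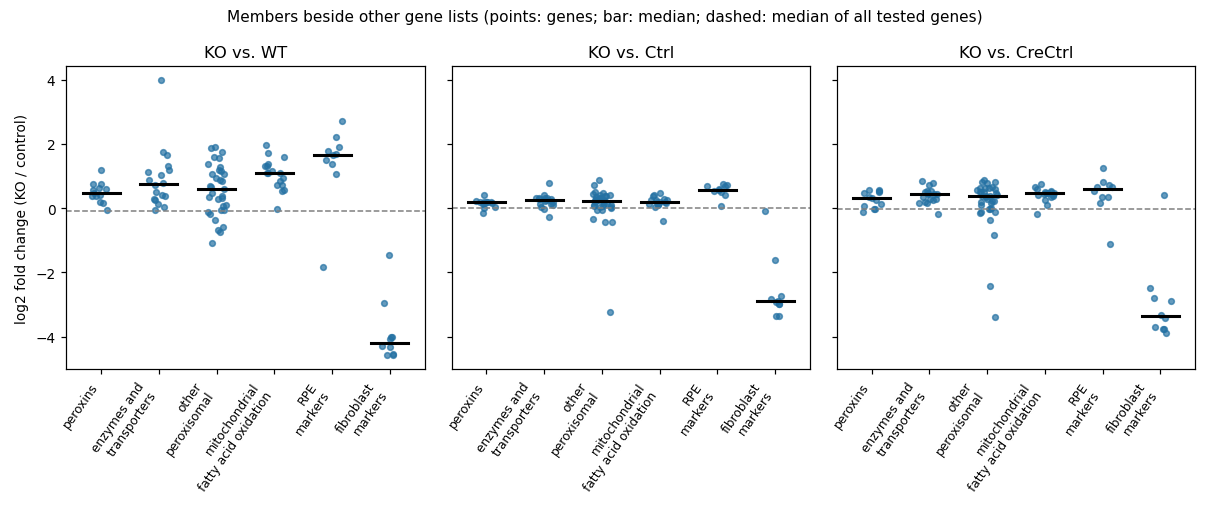
Log2 fold changes (KO against control) of the genes of each list in the 3 sets, with bars at list medians and a dashed line at the median of all tested genes. In the WT set the medians run from 0.48 for the peroxins through 0.75 for the enzymes and transporters and 1.10 for mitochondrial fatty acid oxidation to 1.67 for the RPE markers, with the fibroblast markers at -4.19.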

How the data were processed

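RNA was sequenced from the RPE of 14 mice. Per the labels, the submitters' processing notes name STAR 2.5.2, HTSeq 0.11.2, Cufflinks 2.1.1 and GRCm38. The authors deposited raw counts of reads per Ensembl gene, and the strand setting of the counting is not given in the sources used here. Exons of 15 members overlap another gene, for 1 of them on the same strand, and not every overlap is named above. Of 42687 genes, 42329 had a symbol in GENCODE M21, whose merged exons gave lengths.

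KO was compared with control in each set by edgeR 4.0.16 (R 4.3.3; TMM, filterByExpr, quasi-likelihood test, Benjamini-Hochberg over all tested genes), over all sets with set as a covariate, and between sets in a fit of 6 groups. Genes passed at an adjusted p under 0.05. SE is the fold change divided by the root of F. CPM use the TMM factors of the set, or of all 14 libraries where stated. The comparisons in each set, the fit over all sets and the contrasts of the Ctrl set with the other sets were tried on simulated counts. The contrast of the WT and CreCtrl sets and the fit without the WT set were not. DESeq2 1.42.0 was an alternative.

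The members and lists were chosen with earlier results of these data known. In each comparison up to 2 members per role are given in full, those that passed with the largest change or else the smallest p. *Ehhadh*, *Acox2* counts and *Pex5* in the WT set, values of the other members, the PPAR genes, *Best1*, *Lrat* and the other peroxisomal genes named against CreCtrl were added after the values were seen. Replicates are separate mice. Results of some genes of the lists are not reported here.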

Additional observations from a re-analysis of the deposited data

Results flagged for a closer look

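The test of a difference between sets picked out 5 members for the WT and Ctrl sets, namely *Crot* (a log2 fold change larger by 1.60 in the WT set), *Phyh* (1.48), *Pex11a* (1.11), *Abcd3* (1.05) and *Pxmp4* (0.76), and *Phyh* (1.30) and *Pex11a* (1.03) for the WT and CreCtrl sets.

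Among the 7 KO libraries, scaled over all 14, a single library lay far from the rest in 3 members, by a test that picks out about 1 in 20 groups by chance. KO replicate 3 of the WT set had 52.8 CPM of *Pex14*, the next highest KO library having 43.4 CPM. The same library had 17.6 CPM of *Acox2*, the next highest having 7.27 CPM. KO replicate 2 of the CreCtrl set had 0.0348 CPM of *Slc27a2*, which is 1 count, the other 6 having 0.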

How the results depend on the processing

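In every alternative run no member passed as lower, and in the WT set *Abcd3*, *Crot*, *Ehhadh*, *Pex11a*, *Pex19*, *Phyh*, *Pxmp4* and *Scp2* passed in all of them. With total counts alone as the scaling, 2 peroxins and 6 enzymes and transporters passed against WT (medians 0.23 and 0.51). Against CreCtrl 0 and 0 passed (0.079 and 0.21), and over all sets 2 and 6 (0.14 and 0.25). Of all genes, 1716 of 15428 rose against WT in this scaling, 219 of 15963 against CreCtrl and 1499 of 17662 over all sets. In their change, 2 members differed between WT and Ctrl sets and 1 between WT and CreCtrl sets. With every gene of at least 1 count kept, 3 peroxins and 4 enzymes and transporters passed against CreCtrl and 4 members differed between the WT and CreCtrl sets. DESeq2 called 2 and 4 against CreCtrl. The fit of all 14 libraries gave 8 peroxins (median 0.62) and an enzyme and transporter median of 0.90 against WT, and 1 enzyme or transporter against CreCtrl. RLE scaling left 3 members that differed between the WT and Ctrl sets. Without the WT set, an alternative chosen after seeing the data, 0 peroxins and 0 enzymes and transporters passed (median of the latter 0.31). The cause was not tested. The share of all genes that passed is not given for DESeq2, RLE scaling or the replicate block. Nor is it given for every gene kept, the fit of all 14 libraries, replicates left out or contrasts between sets with total counts alone. The counts of members there cannot be set against such a share.

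Leaving out single replicates gave 2 to 5 peroxins (median 0.48 to 0.64) and 7 to 9 enzymes and transporters (0.68 to 0.84) against WT, 0 to 4 (0.15 to 0.33) and 0 to 6 (0.21 to 0.53) against CreCtrl, and 1 to 6 and 0 to 2 members that differed between the WT set and the other 2. A library left alone in its group was assumed to vary like the others.

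Some small values changed sign. Against WT, *Pex5* was 0.037 with every gene kept, 0.096 in the fit of all libraries and -0.072 to 0.049 with replicates left out. *Decr2* was 0.032, 0.093 and -0.13 to 0.16 in the same order. With total counts alone, *Pex6* was -0.086, *Pex26* -0.045, *Acox3* -0.21 and *Agps* -0.12 against WT, *Pex26* -0.16 against CreCtrl, and *Pex5* -0.18, *Pex6* -0.084, *Pex26* -0.14, *Acox3* -0.046 and *Decr2* -0.093 over all sets. With replicates left out, *Acox3* was -0.061 to 0.19 and *Abcd2* -0.056 to 0.51 against WT, *Pex2* -0.10 to 0.46, *Pex6* -0.064 to 0.55 and *Crot* -0.63 to 0.024 against Ctrl, and *Pex26* -0.0295 to 0.13 against CreCtrl. Without the WT set, *Pex26* was -0.030 and *Acox2* -0.11.

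With a replicate block, 3 peroxins and 8 enzymes and transporters passed against WT, 0 and 0 against Ctrl, 1 and 2 against CreCtrl and 7 and 10 over all sets. The deviations of same-numbered samples correlated at -0.0156, 0.0445 and 0.13 among WT set mice, at 0.000687 with Ctrl and at 0.13 with CreCtrl. With 2 mice a group, differently numbered samples must give the same value with the opposite sign. These values therefore cannot decide whether the numbers pair the samples.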
